A study of Homo sapiens with 4 samples.

Results

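The genes described here are 9 long noncoding RNAs that are widely studied, MALAT1, NEAT1, TUG1, GAS5, SNHG1, DANCR, MEG3, H19 and HOTAIR, among 34755 gene symbols on the array. The rule takes them by name and uses no measured value, though earlier results of these data were known when the names were picked. Every probe annotated with 1 of these symbols was taken, which gave 34 of 58201 probes. MEG3 had 7 probes, TUG1 had 6, HOTAIR had 5, MALAT1 had 4, NEAT1 and SNHG1 had 3 each, and GAS5, DANCR and H19 had 2 each. Each of these probes was printed once per array. The samples were SUM149 cells, a line derived from an inflammatory breast cancer, either untreated or exposed for 3, 6 or 12 h to 2.5 uM of Ricolinostat (ACY1215), an inhibitor of the deacetylase HDAC6. Each of the 4 conditions was measured on 1 two-colour Agilent array, with the sample in Cy5 and, in Cy3, a common reference labelled as a mixture of RNA from the treated and untreated cells. No vehicle-treated array was analysed here, so the effect of the compound and the time in culture cannot be told apart.

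Long noncoding RNAs are transcribed and processed much like messenger RNAs, but act as RNA. Several stay in the nucleus, where MALAT1 lies in nuclear speckles and NEAT1 forms the scaffold of paraspeckles. GAS5, SNHG1 and DANCR carry small nucleolar RNAs (snoRNAs) in their introns, and the spliced transcripts of such host genes are often degraded by nonsense-mediated decay. MEG3 and H19 are transcribed from imprinted loci, and HOTAIR from the HOXC cluster. RefSeq lists 8 of the members as lncRNA, whereas it lists TUG1 as protein-coding.

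With 1 array per time point there was no replicate and no test between conditions, and the 3 changes from untreated share the untreated array. A change is the difference in normalized log2 ratio of Cy5 over Cy3 between a treated array and the untreated array, so that a reference common to all arrays cancels. A probe was measured in a comparison when both channels of the 2 arrays were well above background for it, and called changed when it reached 2-fold, a log2 change of 1. Signals are given in scanner units as deposited, before any normalization between arrays. A fold between such signals can therefore differ from the normalized change. As a scale for technical error, the log2 change of probes printed repeatedly on the array had an SD between spots of 0.17 at 3 h (158 probes), 0.12 at 6 h (200 probes) and 0.12 at 12 h (210 probes). This SD covers the spots of an array and not the spread between cultures. Areas of defective spots covered 3.26% of the untreated array, 4.68% of the 3 h array and 0.250% of the 6 h array, and each value that lies in 1 is named as such. Of 9 breast epithelial markers 8 were well above background in untreated cells, all but TP63, and of 9 markers of blood, endothelial, stromal and liver cells 8 were too, all but COL3A1. In bulk RNA, fewer cells that express a gene and less of its RNA per cell cannot be told apart.

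In untreated cells 32 of the 34 probes were well above background in Cy5, and all 9 genes had at least 1 such probe. The same number was detected at 3 h and at 12 h, and 31 were detected at 6 h. Over all probes of the array, 58.4% were detected in untreated cells. Of the members, 31 probes were measured at 3 h, 30 at 6 h and 31 at 12 h. At 3 h 2 of them passed 2-fold upwards and 0 downwards, where 1.34% of all measured probes passed upwards and 0.304% downwards. At 6 h 2 passed upwards and 0 downwards, against 2.2% and 0.787% of all measured probes. At 12 h 3 passed upwards and 0 downwards, against 1.82% and 0.937%. On simulated data the processing shrank falls of detected probes more than rises, so 0 called downwards does not show that none fell. At 1.5-fold 5 members lay above and 0 below at 3 h, beside 5.68% and 1.73% of all measured probes. Of the 5, A_19_P00321332 of NEAT1, A_33_P3255434 of MEG3 and A_22_P00017599 of SNHG1 lay in a damaged area of the 3 h array. At 6 h 6 members lay above 1.5-fold and 0 below, beside 7.73% and 3.93%, and at 12 h 3 and 2, beside 6.67% and 4.53%. All but 1 of the 2-fold calls came from NEAT1, and the exception was a MEG3 probe at 3 h. The 2 calls at 3 h, of NEAT1 and of MEG3, lay in a damaged area. The median change of the member probes was 0.04 at 3 h, 0.01 at 6 h and 0.05 at 12 h, beside 0.0037, 0.010 and 0.0068 for all measured probes.

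**Figure D1:**
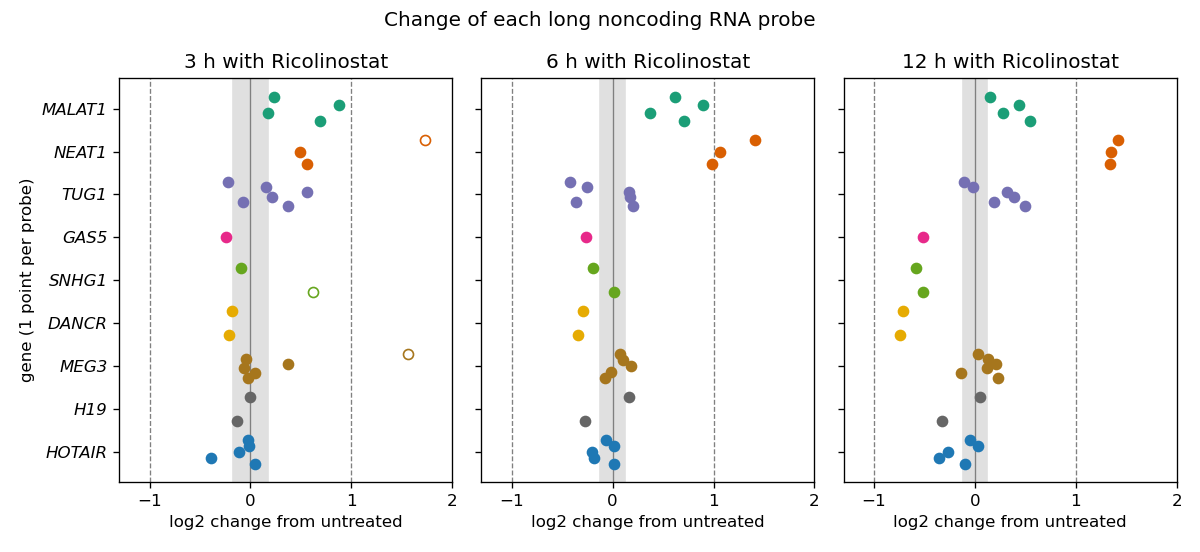
Log2 change from untreated (x axis) of each measured probe, by gene, at 3, 6 and 12 h. Open circles are probes in a damaged area of 1 of the arrays compared, the grey band is 1 SD between repeated spots on each side of 0, and dashed lines mark 2-fold. The 3 NEAT1 probes lie beyond 2-fold at 12 h, between 1.34 and 1.42, and the DANCR probes lie lowest, at -0.71 and -0.74.

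NEAT1 was the only member called at 12 h, with a median of 2.55-fold above untreated over its 3 probes. All 3 probes are annotated to the same transcript, so isoforms of NEAT1 were not told apart. The probe A_19_P00318409 had a Cy5 signal of 158 units in untreated cells, 250.5 at 3 h, 331 at 6 h and 363 at 12 h. Over the same arrays its Cy3 reference signal stayed between 535.5 and 571 units. The untreated array was the lowest of the 4 and the 12 h array the highest, and the log2 change was 0.49 at 3 h, 1.06 at 6 h and 1.35 at 12 h. The probe A_22_P00001342 gave 165, 253, 305 and 380.5 units, with log2 changes of 0.56, 0.98 and 1.34. These probes followed the same order of arrays. The brightest probe, A_19_P00321332, gave 3805.5, 5933, 7481.5 and 7011 units, with log2 changes of 1.73, 1.41 and 1.42.

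The first of these 3 values lay in a damaged area. The Cy3 signal of A_19_P00321332 was 4886.5 units on the 3 h array and between 9660.5 and 11060 on the others, and in Cy5 alone its change at 3 h was 0.60. Values in Cy5 alone were computed from the normalized ratio and mean intensity of both channels, so they are not fully free of Cy3. Without the damaged spot the median change of NEAT1 at 3 h was 0.53, which is larger than the SD between repeated spots and short of 2-fold. At 12 h the 3 probes had an SD of 0.04 between them, and in Cy5 alone they had changes between 1.26 and 1.28. From 6 to 12 h the step was 0.29 and 0.36 for the dimmer pair and 0.0020 for the brightest probe. NEAT1 passed 2-fold at 12 h with all 3 probes under every normalization tried, from a lowest value of 1.01 with arrays centred on their median to a highest of 1.60 with a background offset of 1.

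**Figure D2:**
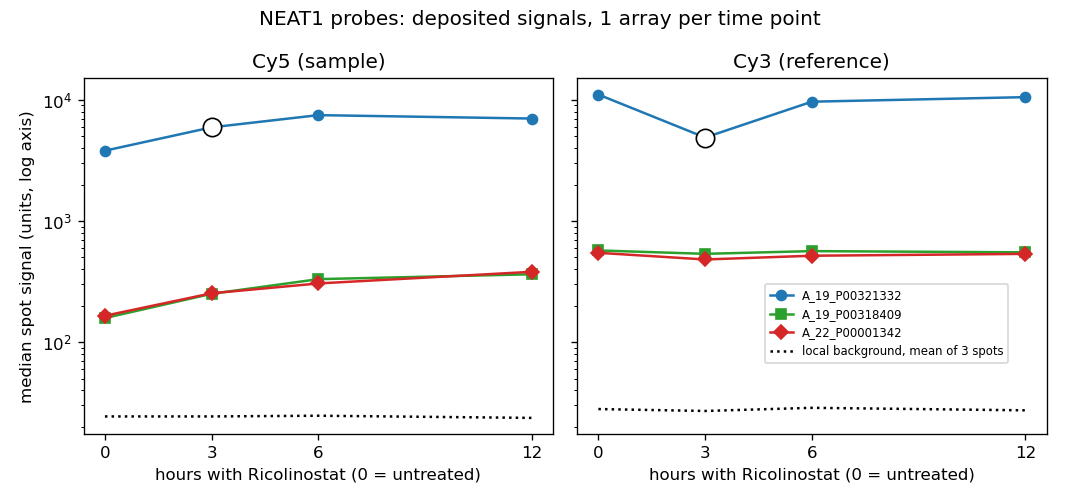
Deposited median spot signal (log axis, arbitrary units) of the 3 NEAT1 probes in Cy5 (left) and Cy3 (right) against hours with Ricolinostat, 1 array per point; large open symbols mark the spot in a damaged area and the dotted line is the local background. Cy5 of A_19_P00318409 goes from 158 units in untreated cells to 363 at 12 h, while its Cy3 stays between 535.5 and 571, and Cy3 of A_19_P00321332 dips to 4886.5 units at 3 h.

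MALAT1, the speckle-associated transcript of the locus next to NEAT1, was above untreated on 4 of 4 probes at each time and did not pass 2-fold on any. Its brightest probe, A_22_P00014171, gave a Cy5 signal of 2390 units in untreated cells, 3166.5 at 3 h, 3178 at 6 h and 2197 at 12 h. Its log2 changes were 0.23, 0.62 and 0.15, so the 6 h array was the highest. The probe A_22_P00024689 gave 171, 255, 253 and 163 units, with changes of 0.88, 0.89 and 0.43. Its Cy3 signal was 3382 units on the untreated array and 2359 to 3063 on the others, and in Cy5 alone its changes were 0.40, 0.66 and 0.25. The probe A_19_P00325158 gave 90, 157.5, 127 and 99 units, with changes of 0.68, 0.71 and 0.55, and A_21_P0010982 gave 404, 448.5, 393 and 345 units, with changes of 0.17, 0.37 and 0.28. For each probe the 6 h value was the highest of the 3, and the step from 6 to 12 h was negative on all 4, between -0.47 and -0.09. For A_19_P00325158 and A_22_P00024689 the lead of 6 h over 3 h, 0.02 and 0.01, was below the SD between repeated spots. With median centring, by the scanner software's log ratio and in the authors' table the 3 h value of each of them was the higher. The median over the probes was 0.46 at 3 h, 0.66 at 6 h and 0.36 at 12 h, with an SD between probes of 0.35, 0.22 and 0.17. In Cy5 alone the medians were 0.37, 0.58 and 0.27. With arrays centred on their median the 12 h values ran from -0.26 to 0.30, so their direction depended on the normalization, and by the scanner software's log ratio the lowest probe at 3 h was at -0.05.

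TUG1, a transcript expressed in many tissues, had probes that differed in direction. A_23_P68868, annotated to transcript variant 3, gave Cy5 signals of 2438, 2224, 1600 and 1788 units in untreated cells and at 3, 6 and 12 h, with log2 changes of -0.23, -0.43 and -0.10. A_19_P00812582, annotated to variant 1, gave 73.5, 103, 87 and 102 units, with changes of 0.37, 0.20 and 0.50. At 3 and at 12 h 4 of 6 probes were above 0, and at 6 h 3 of 6 were. The gene's median was 0.19, -0.05 and 0.25, with an SD between probes of 0.29, 0.29 and 0.24. Annotated variant did not separate the probes, since A_22_P00011301, of variant 1 as well, gave 851, 896, 623 and 672 units and changes of 0.16, -0.25 and -0.02. The step from 6 to 12 h was positive on all 6 probes, between 0.16 and 0.55.

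The snoRNA host genes GAS5, SNHG1 and DANCR were lower at 12 h than in untreated cells on every measured probe, without reaching 2-fold. DANCR, which carries a snoRNA of the box H/ACA class, had the lowest values. Its probe A_22_P00012866 gave Cy5 signals of 2148, 2143, 1575.5 and 1085 units in untreated cells and at 3, 6 and 12 h, with log2 changes of -0.18, -0.29 and -0.71. The other, A_24_P902052, gave 1533.5, 1709, 950.5 and 657 units, with changes of -0.21, -0.35 and -0.74. Both probes were lowest on the 12 h array, and their median there was 1.66-fold below untreated, with an SD of 0.02 between them. Among member probes with a change from untreated, they were the only 2 at least 1.5-fold lower at 12 h in the main processing. This did not set DANCR apart, since A_24_P785293 of SNHG1 was 1.49-fold lower. That probe passed 1.5-fold without background subtraction (-0.60), with an offset of 1 (-0.64) and in the authors' table (-0.69). A_32_P230828 of GAS5 passed it in the authors' table (-0.61) but not without background subtraction (-0.54). For A_33_P3326285 of GAS5 no change from untreated was taken, and its raw Cy5 signal went from 28645 units in untreated cells to 12548 at 12 h. Raw signals overstate falls on these 2 arrays. The TUG1 probe A_23_P68868 went from 2438 to 1788 units with a normalized log2 change of -0.10. A_22_P00014171 of MALAT1 went from 2390 to 2197 units with a change of 0.15. In Cy5 alone the DANCR probes were at -0.61 and -0.84 at 12 h, the measured SNHG1 probes at -0.67 and -0.64, and A_32_P230828 of GAS5 at -0.78.

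SNHG1, which hosts several box C/D snoRNAs, gave on its brightest probe, A_24_P785293, Cy5 signals of 5446, 5491, 4065 and 2535 units, with log2 changes of -0.10, -0.19 and -0.58. A_22_P00017599 gave 386, 170.5, 278 and 196 units, with changes of 0.62, 0.02 and -0.51. Its 3 h spot lay in a damaged area, where Cy3 was 63.5 units against 223 to 271 on the other arrays, and in Cy5 alone its change at 3 h was -1.003. A_33_P3507562 was not well above background on any array, at 25.5 to 28 units, near the local Cy5 background of 22 to 27 units around the members' spots.

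GAS5 (growth arrest-specific 5), a host of box C/D snoRNAs, had 1 probe with a value in every comparison. A_32_P230828 gave Cy5 signals of 3604.5, 3119.5, 2156 and 1568 units, and log2 changes of -0.24, -0.27 and -0.52. The brighter probe, A_33_P3326285, gave 28645, 23706, 17818 and 12548 units. The scanner software marked its untreated Cy3 spot as uneven, so that no change from untreated was taken. With that mark ignored, an alternative chosen after seeing the data, its changes were -0.62, -0.70 and -1.10, the last of them past 2-fold. Its Cy3 signal was 31907 units on the untreated array and 39197 to 45063 on the others.

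The step from 6 to 12 h uses neither the untreated array nor the 3 h array, where the damage lay. It was -0.25 and -0.40 for the GAS5 probes, -0.39 and -0.53 for SNHG1 and -0.42 and -0.40 for DANCR. Over 31015 probes measured on both arrays the median step was -0.0066, 10.5% of them had a step at or below the smallest of these 6, and the SD between repeated spots was 0.08 (233 probes). That value was set by the probes themselves, so the share is a description. With arrays centred on their median, which put the median of all probes at -0.15 at 12 h, the change at 12 h was -1.07 and -1.10 for DANCR, -1.003 for the brightest SNHG1 probe and -0.94 for A_32_P230828 of GAS5. Relative to that median DANCR was at -0.92 and -0.95.

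**Figure D3:**
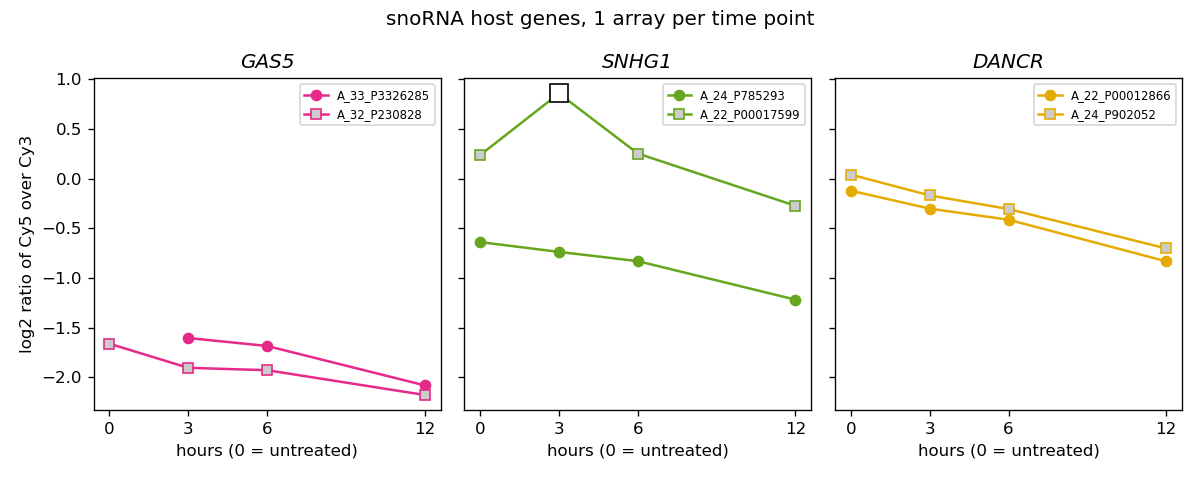
Normalized log2 ratio of Cy5 over Cy3 (y axis) of the probes of GAS5, SNHG1 and DANCR that were above background, against hours with Ricolinostat, 1 array per point; the large open symbol is the SNHG1 spot in a damaged area, and A_33_P3326285 of GAS5 has no untreated value. Every probe is lower at 12 h than at 6 h, by 0.25 to 0.53 on the log2 scale.

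Because these 3 host genes moved in 1 direction, their promoters are shown, each from 250 bases before to 50 after the transcription start in RefSeq (GRCh38.p14). Capitals mark CCAAT and its complement ATTGG, a motif chosen after the sequences had been read and searched on both strands. The GAS5 promoter is at chr1:173868996-173869295 (minus strand), that of SNHG1 at chr11:62855836-62856135 (minus strand) and that of DANCR at chr4:52712144-52712443 (plus strand).
GAS5: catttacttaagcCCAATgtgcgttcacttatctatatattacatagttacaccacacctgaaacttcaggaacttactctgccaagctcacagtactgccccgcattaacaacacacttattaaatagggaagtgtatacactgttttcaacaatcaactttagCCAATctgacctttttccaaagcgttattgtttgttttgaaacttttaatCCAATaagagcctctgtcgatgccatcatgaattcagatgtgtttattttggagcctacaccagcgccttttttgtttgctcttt
SNHG1: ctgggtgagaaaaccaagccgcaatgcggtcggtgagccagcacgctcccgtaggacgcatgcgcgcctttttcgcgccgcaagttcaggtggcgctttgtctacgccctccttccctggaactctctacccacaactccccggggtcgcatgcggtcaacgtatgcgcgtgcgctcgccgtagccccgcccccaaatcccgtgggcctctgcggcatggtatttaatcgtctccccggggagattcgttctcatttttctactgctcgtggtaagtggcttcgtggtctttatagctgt
DANCR: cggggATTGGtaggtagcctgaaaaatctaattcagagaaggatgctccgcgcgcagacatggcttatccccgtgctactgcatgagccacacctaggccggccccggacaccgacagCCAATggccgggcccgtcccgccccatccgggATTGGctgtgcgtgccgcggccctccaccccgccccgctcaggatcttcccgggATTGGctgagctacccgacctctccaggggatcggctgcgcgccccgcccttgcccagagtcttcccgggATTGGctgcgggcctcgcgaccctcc
GAS5 had 3 matches, DANCR 5 and SNHG1 0. Among 35116 promoters of this length, 34.6% had at least 1 match, 3.26% at least 3 and 0.359% at least 5. The 3 promoters therefore did not share this motif. A run of pyrimidines at the start of the transcript (C followed by at least 4 C or T, beginning within the first 10 transcribed bases), a mark of growth-regulated messages and many snoRNA hosts, was found in DANCR and not in GAS5 or SNHG1 as RefSeq places their starts, and in 19.4% of all promoters. Of 15 snoRNA host genes with a listed promoter, the 3 members included, 8 had this run and 4 had CCAAT. These matches are descriptions of the sequence.

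The wider list of snoRNA host genes, which leaves out the 3 members, had 15 genes, all detected in untreated cells. At 12 h 12 of the 15 measured were below 0, with a median log2 change of -0.30, beside 0.01 for all genes measured. The median was -0.24 at 3 h (12 of 15 below 0) and -0.15 at 6 h (10 of 14 below 0). At 12 h 2 of 15 fell past 2-fold and 0 rose, where 1.12% of all genes fell past 2-fold and 2.34% rose. These were EPB41L4A-AS1, with changes of -0.56, -0.87 and -1.15 at 3, 6 and 12 h, and SNHG8, with -0.54, -0.73 and -1.05. The list's median at 12 h lay below that of all genes under each normalization tried, by 0.31 to 0.59 on the log2 scale.

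MEG3, the maternally expressed transcript of an imprinted locus, had low signals. Its probe A_33_P3309501 gave Cy5 signals of 361, 394.5, 320 and 331 units, with log2 changes of -0.04, 0.10 and 0.13. A_33_P3255434 gave 61, 38, 49 and 47 units, with changes of 1.56, 0.07 and 0.03. The first of these, the only member call outside NEAT1, lay in a damaged area in which Cy3 was 183 units against 739 to 802.5 on the other arrays, and in Cy5 alone the change was -0.35. The other 5 probes lay between 21.5 and 55 units on all arrays. Of these A_22_P00005221 was not well above background in Cy5 on any array, and A_19_P00316675 not at 6 h, with 30 units in untreated cells and 28 at 6 h. Without the damaged spot the median of MEG3 at 3 h was -0.02 over 5 probes, from -0.07 to 0.37.

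H19, the maternally expressed transcript beside IGF2, gave on A_24_P52697 Cy5 signals of 64, 63, 65 and 48 units, with log2 changes of -0.0073, 0.16 and 0.05. A_19_P00323082 gave 50.5, 38, 40 and 39 units, with changes of -0.13, -0.28 and -0.33. Neither reached 1.5-fold in these values. In the authors' table the changes of A_19_P00323082 were -0.45, -0.66 and -0.68, with an offset of 1 they were -0.51, -0.68 and -0.75, and by the scanner software's log ratio -0.83, -0.73 and -0.43. HOTAIR, known for its links to the polycomb repressive complex 2, was detected on all 5 probes. The brightest, A_21_P0010501, gave 130, 161, 104.5 and 112 units, with changes of -0.02, -0.07 and -0.05. Its probe farthest from 0 was A_21_P0010504, at 66, 46, 42 and 32 units and changes of -0.39, -0.19 and -0.35. The gene's median was -0.02, -0.07 and -0.10, and none of its probes reached 1.5-fold in these values. A_21_P0010504 depended on the background correction, with a change at 12 h of -0.64 without subtraction, -0.92 in the authors' table, -1.01 with an offset of 1 and -1.42 by the scanner software's log ratio.

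On all 4 probes MALAT1 was well below the reference. They had log2 ratios of Cy5 over Cy3 between -4.46 and -2.42 over the 4 arrays, so that the reference was more than 4-fold brighter than the sample on each. A_24_P52697 of H19 also had ratios of -2.28, -2.28, -2.12 and -2.23. Of 29689 probes measured on all 4 arrays, 1.90% were below -2 on each array, and of 30 member probes 5 were (16.7%). Ratios above 0 on all arrays were found in 39.0% of all probes and in 4 of 30 member probes (13.3%), from HOTAIR and MEG3. Why the reference, labelled as a mixture of these samples, was brighter than each of them for MALAT1 and A_24_P52697 was not tested. Ratios far from 0 were not particular to these members. In untreated cells the 8 detected markers of other cells had ratios from -7.03 (ALB, the liver's serum albumin) to 0.50, with 7 of 8 below 0. The 7 epithelial markers with a value there had ratios from -1.04 to 4.05 (KRT5, a basal keratin), with 5 of 7 above 0. IGF2, beside H19, had -3.76 and DLK1, near MEG3, had -3.84. The changes at 3, 6 and 12 h were 0.03, 0.05 and 0.07 for ALB and -0.16, -0.09 and 0.10 for KRT5. Both therefore kept their side of 0 on every array. Whether the reference held only these samples was not tested. All arrays carried the sample in the same dye, and the part of dye effects in the ratio of a single probe was not tested.

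**Figure D4:**
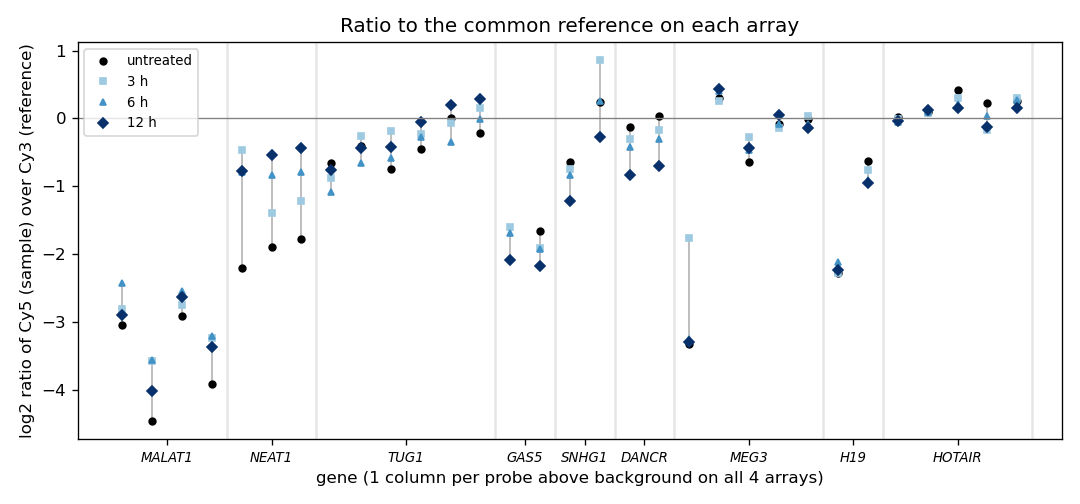
Normalized log2 ratio of Cy5 (sample) over Cy3 (reference) for each member probe above background in both channels on all 4 arrays, by gene; symbols are the 4 arrays and the grey line spans them. MALAT1 lies between -4.46 and -2.42 on every array, and A_33_P3255434 of MEG3 lies at -1.76 at 3 h, in a damaged area, against -3.25 or lower on the others.

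Genes related to the members were described by lists. Over all genes measured 1.69% rose and 0.366% fell past 2-fold at 3 h, 2.81% and 0.939% at 6 h, and 2.34% and 1.12% at 12 h. Of 18 proteins of paraspeckles and nuclear speckles, 0 passed 2-fold at any time, and the list's median at 12 h was -0.18, with 15 of 18 below 0. Farthest from 0 at 12 h were SRRM2, a large speckle protein, with -0.11, -0.44 and -0.87, and SRSF7, a splicing factor, with -0.14, -0.69 and -0.78. NUDT21, a factor of RNA 3' end cleavage, went the other way, with 0.70, 0.89 and 0.47. Of 14 factors of nonsense-mediated decay, 1 fell past 2-fold at 12 h and 0 rose. The list's median was 0.11 at 3 h (10 of 14 above 0), 0.07 at 6 h (9 of 14) and -0.14 at 12 h (4 of 14). The gene that fell was SMG9, part of the SMG1 kinase complex, with -0.49, -1.16 and -1.06, and next came SMG5 with -0.46, -0.64 and -0.60. MAGOH, of the exon junction complex, had 0.76, 0.76 and 0.49. Of 7 genes for box C/D snoRNP proteins and their assembly factors, 0 passed 2-fold, and the list's median at 12 h was -0.05, with 3 of 7 above 0. The farthest from 0 were NOP56 and NOP58, core proteins of these particles, with -0.42 and -0.34 at 12 h, while FBL, the methyltransferase of the same core, had 0.20.

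Of 11 members of the polycomb repressive complex 2 and its partners, 0 passed 2-fold at 12 h, although PHF19 came close with -0.30, -0.60 and -0.998, and PHF1 had 0.39, 0.72 and 0.67. Among 20 measured neighbours of the members on their chromosomes, 1 fell past 2-fold and 0 rose at 12 h. It was WDR74, a ribosome assembly factor that lies close to SNHG1, with -0.58, -0.98 and -1.12. SLC3A2, an amino acid transporter subunit in the same region, had -0.73, -0.82 and -0.95. The median of the neighbours at 12 h was 0.06, with 11 of 20 above 0. Of 24 other long noncoding RNAs measured at 12 h, 1 rose and 1 fell past 2-fold, with a median of -0.06. UCA1, an RNA first described in bladder cancer, had 1.27, 1.24 and 2.28, with its untreated spot in a damaged area, and CCAT1, known from colon cancer, had -1.13, -1.92 and -1.57. Among the markers, CDH1, which encodes the adhesion protein E-cadherin, had 0.69, 1.03 and 1.32, and COL1A1, a collagen gene of stromal cells, had 0.36, 0.44 and 0.67.

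**Figure D5:**
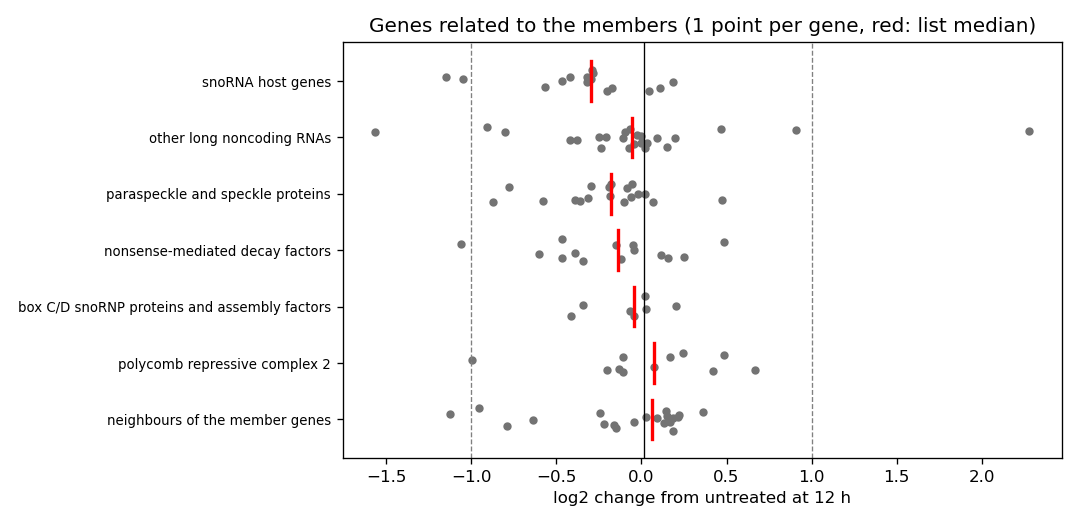
Log2 change from untreated at 12 h (x axis) of the genes of each list, 1 point per measured gene placed at random heights within its list; red bars are list medians, the black line is the median of all genes (0.01) and dashed lines mark 2-fold. The snoRNA host genes have a median of -0.30, with 2 of 15 genes beyond 2-fold downwards.

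The genes whose pattern lay closest to a member were found by the Euclidean distance over the 3 log2 changes, among 19891 genes measured on all arrays. This was done for the 4 members whose representative probe reached 1.5-fold. For NEAT1 they were S1PR1, a sphingosine phosphate receptor, with 1.58, 1.46 and 1.35 (distance 0.16), BCL6, a transcriptional repressor, with 1.66, 1.65 and 1.42 (0.24), and DNAJB5, a chaperone, with 1.52, 1.54 and 1.40 (0.24). The NEAT1 value at 3 h used here is that of the damaged spot. For MALAT1 they were LOC100130899, C2orf48 and TECPR2, with distances of 0.06 to 0.07. For DANCR they were FBXW4, PRMT2, an arginine methyltransferase, and ATIC, an enzyme of purine synthesis, with distances of 0.02 to 0.05, of which FBXW4 had a damaged spot. For MEG3 they were DPYSL3, MAGEA2B and EFS, each with a damaged spot like MEG3 itself at 3 h.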

How the data were processed

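Each of 4 conditions of SUM149 cells had 1 two-colour Agilent array. Spot intensity and local background as the scanner software read them were deposited by the authors with quality flags and a log10 ratio of Cy5 over Cy3. A further deposited table holds normalized log2 ratios with gene symbols, whose normalization is not given in the sources used here. The number of arrays limits the precision.

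Median spot intensities entered normexp (offset 50), with control spots and marked outliers then left out, loess within arrays and Aquantile between them (R 4.3.3, limma 3.58.1). On simulated data this processing shrank planted changes of probes above background, falls more than rises, so falls are missed more often. The parts of the offset and of probe brightness were not examined. Counts used pandas 2.3.3, numpy 2.4.6 and scipy 1.17.1 (Python 3.11.15). The representative probe of a gene was that with the highest mean Cy3 signal, for members among probes with a value on all 4 arrays. Damaged areas spanned 13 rows by 7 columns in which 10% or more of the spots were defective. No fold is given for a probe above background in only 1 of 2 arrays.

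The members and lists were chosen with earlier results of these data known. The named genes are all members, the 2 genes of each list with the largest change at 12 h, and the 3 genes nearest to each member past 1.5-fold. FBL, NUDT21 and MAGOH were named after their values were seen. Alternatives covered background correction, normalization, the Cy5 channel alone, the authors' table, damaged areas, dim probes, threshold, probes of a gene and detection. Ignoring outlier marks was added after seeing the data. Probe sequences were not used here.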

Additional observations from a re-analysis of the deposited data

Results flagged for a closer look

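Over the 33 member probes examined, the normalized Cy3 level of 4 probes stood apart from the other arrays, each being low on the 3 h array. The gap to the nearest array, as a share of the range over the 4 arrays, was 0.8499 for NEAT1 A_19_P00321332, 0.9334 for MEG3 A_33_P3255434, 0.8814 for TUG1 A_22_P00011301 and 0.9471 for MEG3 A_22_P00005219. Chance marks about 1 in 20 such groups. The whole range was 1.13 on the log2 scale for the NEAT1 probe and 1.91 for A_33_P3255434, both in a damaged area of the 3 h array, against 0.20 for the TUG1 probe and 0.08 for A_22_P00005219.

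For SNHG1 A_22_P00017599 the change from untreated was 0.6197 at 3 h and -0.5108 at 12 h, in opposite directions. This difference was not tested, since each time point has 1 array and both values share the untreated array. The 3 h spot lay in a damaged area.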

How the results depend on the processing

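Counts of member probes past 2-fold depended on the processing at each time. At 3 h the 2 probes above became 3 with a background offset of 1 and in the authors' table, 1 with the scanner software's log ratio, 0 with Cy5 alone, 0 with damaged areas left out and 5 at 1.5-fold, while the count below went from 0 to 1 with Cy5 alone. The probe added above and the probe below in Cy5 alone were both A_22_P00017599 of SNHG1, whose 3 h spot lay in a damaged area. At 6 h the 2 above became 3, all of NEAT1, without background subtraction, with an offset of 1, with the scanner software's log ratio and in the authors' table, and became 1 with median centring, 6 at 1.5-fold and 1 with 1 probe per gene. At 12 h the 3 above became 1 with 1 probe per gene, and the 0 below became 1 with a background offset of 1, 1 with the scanner software's log ratio (A_21_P0010504 of HOTAIR in both), 3 with median centring, 1 with outlier marks ignored and 2 at 1.5-fold. The median of the member probes at 12 h went from 0.05 to -0.13 with median centring, which put the median of all probes at -0.15. The change of MEG3 at 3 h reversed, from 1.56 to -0.35 in Cy5 alone. Of 241 repeats of the 27 values of single genes, 186 differed from the reported value by less than the error used, 54 by more and 1 reversed, and the sign differed in 28. The causes of these moves were not examined. No paired analysis was possible because a single array stands for each condition, and no array could be left out for the same reason. Signals of MEG3, H19 and HOTAIR near the local background limit what could be seen of them.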
